A study of Homo sapiens with 12 samples.

Results

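The proteasome is the protein complex that degrades proteins tagged with ubiquitin. Its catalytic core is a barrel of outer alpha rings and inner beta rings, and the active sites lie on beta subunits. A regulatory particle of ATPases and scaffold subunits caps the barrel, binds ubiquitin chains, unfolds the substrate and feeds it into the core, while dedicated chaperones assemble the rings and alternative activators can take the place of the cap. Most human genes of these parts carry symbols that begin with PSMA, PSMB, PSMC, PSMD, PSME, PSMF or PSMG followed by a digit.

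All gene symbols of that pattern were taken whose probe was detected (detection p under 0.05) on 3 or more of the 12 arrays, with 1 probe per gene chosen by the highest mean. Of 48 matching symbols in the platform annotation, 45 met this rule and are called members here, out of 11414 genes tested in all. Of the 45, 41 are proteasome genes. The other 4 match the pattern but are not proteasome genes. PSMC3IP encodes a meiotic recombination factor, PSME3IP1 a protein that binds PSME3, and PSMD6-AS2 and PSMG3-AS1 are antisense RNAs. PSMA8, PSMB11 and PSMF1 were not detected on enough arrays, and PSMA7, PSMC5, PSMD7 and PSMD13 were not analysed here. Probe signal passed the detection limit on every array for 40 members. PSMB9 passed on 4 arrays, PSMD9 and PSMC3IP on 8, PSMG3-AS1 on 6 and PSMD6-AS2 on 3, so that differences of these 5 genes lie close to background.

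The cells were VCaP, a prostate cancer line from a bone metastasis that carries the TMPRSS2-ERG fusion and depends on the androgen receptor. The groups were cells given 0.1 nM dihydrotestosterone (DHT, the androgen that binds the receptor most tightly among natural ones), cells given 10 µM enzalutamide (an androgen receptor antagonist) with 100 nM dexamethasone (a synthetic glucocorticoid), cells given 10 µM enzalutamide alone, and cells given the vehicle DMSO, all for 24 h. Each group had 3 arrays, which the labels describe as biological replicates, and all groups were grown in complete medium, so the vehicle cells had the hormones of the medium. The data describe 1 cell line, and in RNA from whole cultures fewer cells expressing a gene and less RNA per cell cannot be told apart.

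Values are log2 probe intensities after background correction and quantile normalization, which scale with RNA abundance for 1 probe but are not comparable between probes. Mean raw intensity was 199 on vehicle array 3 and 271 to 344 on the other 11 arrays, and 15852 to 18352 of 47322 probes were detected per array. The luminal markers KLK2, TMPRSS2, KRT8, KRT18 and SLC45A3 were detected on all 12 arrays and KLK3 on 9, while the basal keratins KRT5 and KRT14, the fibroblast gene DCN and the endothelial gene CDH5 were detected on none. Among the other markers of stroma, endothelium and leukocytes, CD68 was detected on 12 arrays and the rest on 1 to 4. FKBP5, an androgen and glucocorticoid target, checked the treatments: its log2 change was 2.39 ± 0.09 with DHT over vehicle, -0.96 ± 0.09 with enzalutamide over vehicle and 1.36 ± 0.09 with the combination over enzalutamide (SE).

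The promoters show what the regulatory sequence of these genes holds. Proteasome genes are known targets of NFE2L1, a factor that binds antioxidant response elements, and the androgen and glucocorticoid receptors bind a pair of inverted half-sites 3 bases apart. RefSeq promoter windows (GRCh38.p14, 250 bases before to 50 after the start) were given for 36 of the 41 proteasome genes. The element core TGACNNNGC (or GCNNNGTCA on the other strand) occurred in 13 of the 36 windows (36.1%) and in 13.6% of all 27305 promoter windows. The CCAAT box, searched as CCAAT on both strands, occurred in 16 (44.4%), against 35.7% of all. The steroid half-site, AGAACA searched on both strands, occurred in 4 (11.1%), against 14.9% of all, and the full steroid site, both half-sites with 3 bases between them, in 0, against 0.00366% of all. No match of 1 motif overlapped a match of another in these windows.

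The 250 bases before the start are printed for 4 genes whose mRNA changed with DHT: PSMD12 and PSME4, which rose, and PSMG1 and PSMG4, which fell. Each runs 5′ to 3′ on the gene's own strand, with element cores and steroid half-sites in capitals. The windows are chr17:67366578-67366827 (minus strand), chr2:53970994-53971243 (minus strand), chr21:39183452-39183701 (minus strand) and chr6:3258697-3258946 (plus strand).
PSMD12: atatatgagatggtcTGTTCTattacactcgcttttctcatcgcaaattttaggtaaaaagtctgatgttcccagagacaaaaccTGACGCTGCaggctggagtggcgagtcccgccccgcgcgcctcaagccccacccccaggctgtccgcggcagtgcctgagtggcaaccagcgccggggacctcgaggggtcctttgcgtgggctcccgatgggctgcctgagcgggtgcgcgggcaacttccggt
PSME4: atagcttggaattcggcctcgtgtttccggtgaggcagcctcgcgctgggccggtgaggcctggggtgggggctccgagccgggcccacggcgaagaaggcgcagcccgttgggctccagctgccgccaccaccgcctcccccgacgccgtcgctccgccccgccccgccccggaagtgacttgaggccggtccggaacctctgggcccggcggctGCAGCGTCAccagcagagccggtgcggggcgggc
PSMG1: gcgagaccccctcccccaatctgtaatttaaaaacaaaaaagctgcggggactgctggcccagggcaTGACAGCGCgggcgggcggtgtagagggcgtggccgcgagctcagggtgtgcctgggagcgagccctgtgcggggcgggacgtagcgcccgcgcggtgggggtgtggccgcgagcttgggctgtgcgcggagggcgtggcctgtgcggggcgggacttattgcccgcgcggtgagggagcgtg
PSMG4: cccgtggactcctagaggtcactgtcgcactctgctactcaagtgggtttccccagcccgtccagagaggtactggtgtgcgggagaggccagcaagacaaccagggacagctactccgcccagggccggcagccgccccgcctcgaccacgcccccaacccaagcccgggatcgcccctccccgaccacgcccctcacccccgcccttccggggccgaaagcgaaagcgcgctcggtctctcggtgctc
An element core began at -165 in PSMD12, at -34 in PSME4 and at -183 in PSMG1, and a steroid half-site at -235 in PSMD12, counted from the first transcribed base. No letters of either kind were in the PSMG4 window. A core lay within the full window of 4 of the 5 genes with a window that rose with DHT, 1 of the 3 that fell and 8 of the 28 others, which is a description of the letters only. In PSMC4 and PSMD1, which rose, the core began after the start, at 28 and 40.

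DHT raised the mRNA of 6 proteasome genes by 1.17 to 1.33 times and lowered 3, by up to 1.67 times. The risers were spread over the machine: 1 alpha subunit (PSMA6), 1 beta subunit (PSMB7), 1 ATPase (PSMC4), 2 scaffold subunits of the regulatory particle (PSMD1 and PSMD12) and the activator PSME4. The genes that fell were 2 of the 4 chaperones of core assembly, PSMG1 and PSMG4, and the immunoproteasome subunit PSMB10. In all, 9 of the 45 members (20%) passed limma's test at an adjusted p under 0.05, against 23.5% of all genes (12% higher, 11.5% lower), so the share of members called was near the background and is no result about the family. The median log2 change was 0.09 over the members and 0.01 over all genes, with 31 members positive and 14 negative. The members' median was 0.06 without vehicle array 1 and 0.13 without vehicle array 3. The values of the DHT and vehicle arrays did not overlap for 21 members (17 above, 4 below), against 37.2% of all genes.

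**Figure D1:**
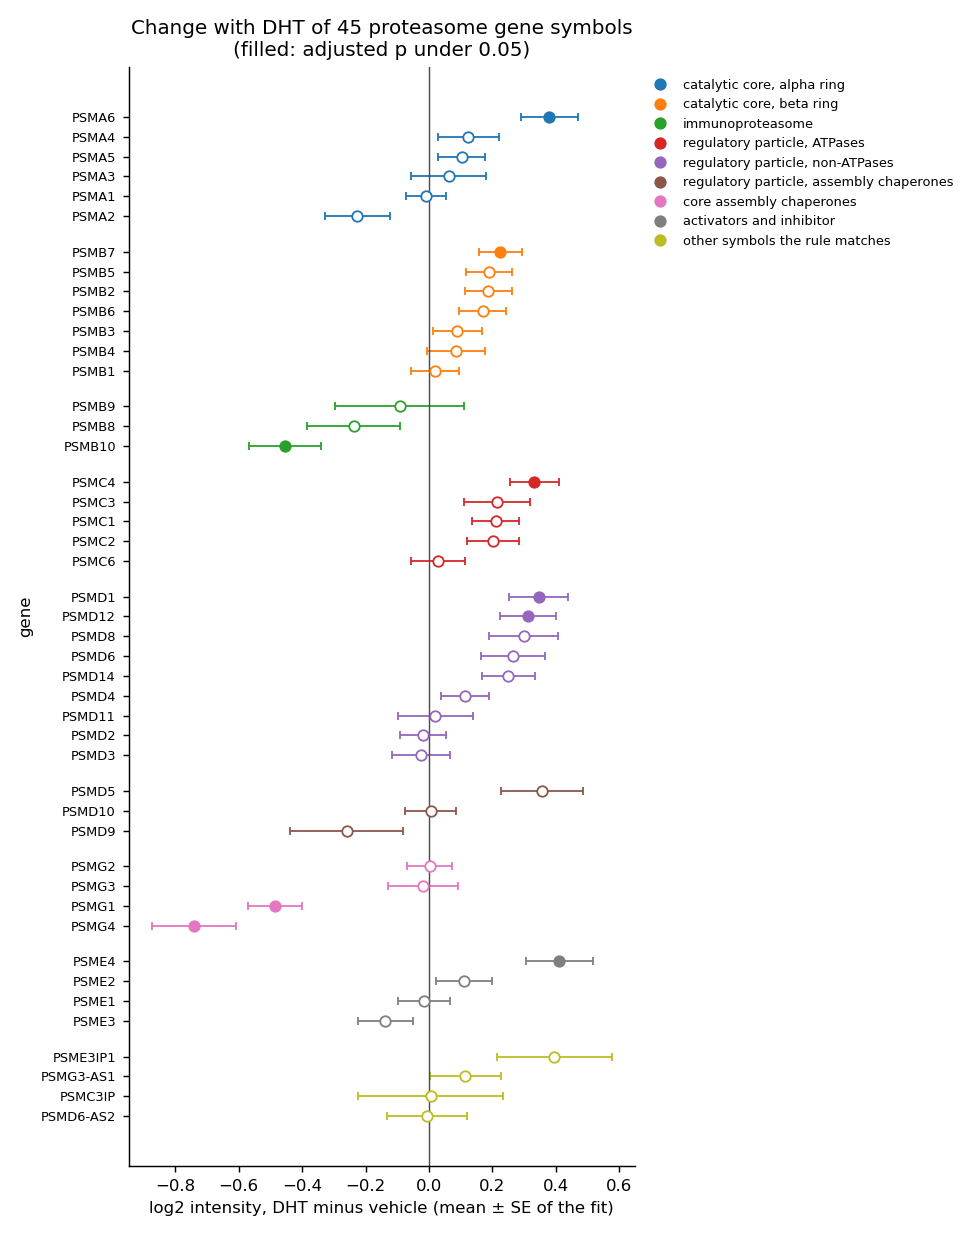
Log2 change of each of the 45 members with DHT over vehicle (x axis; points are means of 3 arrays against 3, bars the standard error of the fit), grouped by role down the page. Filled points passed an adjusted p under 0.05; filled or open, all 7 constitutive beta subunits (6 of 7 with arrays scaled to the probes detected on all of them) and all 5 ATPases lie right of 0, while PSMB10, PSMG1 and PSMG4 lie farthest to the left.

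In the alpha ring, which forms the gate of the barrel, 1 of 6 genes tested rose and none fell, with changes of -0.23 to 0.38. PSMA6 had log2 intensities of 12.48, 12.48 and 12.27 on the DHT arrays, against 12.02, 12.17 and 11.90 on the vehicle arrays. All 3 DHT arrays were above all vehicle arrays, array 3 by less than the other 2. The log2 change was 0.38 ± 0.09 (1.30-fold, adjusted p = 0.00879, limma), and a second PSMA6 probe changed by 0.52.

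In the constitutive beta ring all 7 genes tested had positive changes (0.02 to 0.22), 6 of 7 with arrays scaled to the median of the probes detected on all of them, and 1 passed the test. PSMB7, the subunit with trypsin-like activity, had 12.10, 12.04 and 12.06 on the DHT arrays, against 11.80, 11.81 and 11.92 on the vehicle arrays. The DHT arrays lay together above the vehicle arrays, of which array 3 was the highest. The change of 0.22 ± 0.07 (1.17-fold, adjusted p = 0.0333, limma) was the smallest of the 9 that passed, and it did not pass with that scaling (0.18, adjusted p = 0.0908). PSMB5, the chymotrypsin-like subunit that proteasome inhibitors such as bortezomib bind, had a change of 0.19 ± 0.07 with an adjusted p of 0.0811.

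The immunoproteasome subunits PSMB8, PSMB9 and PSMB10 replace 3 constitutive beta subunits after interferon exposure and alter the peptides made for antigen presentation. All 3 had negative changes, and 1 passed the test. PSMB10, which takes the place of PSMB7, had 9.36, 9.43 and 9.55 on the DHT arrays, against 10.00, 9.74 and 9.97 on the vehicle arrays. The groups did not overlap, and the change was -0.45 ± 0.11 (1.37-fold lower, adjusted p = 0.0126, limma). PSMB8 had 6.96, 6.82 and 7.0 with DHT, against 7.05, 7.12 and 7.33 with vehicle, also without overlap, but its change of -0.24 ± 0.15 did not pass (adjusted p = 0.285). Its 3 detected probes all had negative changes. PSMB9 was near background, with a change of -0.09 ± 0.20.

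Among the ATPases, the ring of the regulatory particle that unfolds substrates, all 5 genes tested had positive changes (0.03 to 0.33) and 1 passed. PSMC4 had 8.26, 8.16 and 8.29 on the DHT arrays, against 7.92, 7.94 and 7.86 on the vehicle arrays, with no overlap and a narrow spread in both groups. Its change was 0.33 ± 0.08 (1.26-fold, adjusted p = 0.00869, limma). The probes of this gene disagreed: another detected probe changed by 0.38, but the remaining one by -0.18, and the mean over the 3 probes changed by 0.18 (adjusted p = 0.109).

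Of the 9 other subunits of the regulatory particle that were tested, 2 rose and none fell (changes of -0.02 to 0.35). PSMD1, a scaffold subunit of the base, had 8.86, 8.70 and 8.99 on the DHT arrays, against 8.59, 8.40 and 8.52 on the vehicle arrays, a change of 0.35 ± 0.09 (adjusted p = 0.0183, limma). PSMD12, a scaffold of the lid, had 9.43, 9.35 and 9.45 on the DHT arrays, against 8.91, 9.23 and 9.16 on the vehicle arrays, a change of 0.31 ± 0.09 (adjusted p = 0.0236, limma). The mean of its 2 kept probes changed by 0.33 but did not pass (adjusted p = 0.0762). Neither pair of groups overlapped, and vehicle array 1 was the low one for PSMD12. PSMD14, the deubiquitinase of the lid, had a change of 0.25 ± 0.08 that missed the threshold (adjusted p = 0.0515) and passed with the replicate number as a block (adjusted p = 0.0401). None of the 3 chaperones that assemble the base, PSMD5, PSMD9 and PSMD10, passed, and PSMD5 had the largest change of them (0.36 ± 0.13, adjusted p = 0.0664).

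The core assembly chaperones work as heterodimers, PSMG1 with PSMG2 and PSMG3 with PSMG4. They order the alpha subunits and are not part of the finished barrel. PSMG1 had 8.60, 8.59 and 8.64 on the DHT arrays, against 9.00, 9.18 and 9.10 on the vehicle arrays. All DHT values were below all vehicle values, and the 3 DHT arrays were close to each other. The change was -0.49 ± 0.08 (1.40-fold lower, adjusted p = 0.00138, limma), and a second PSMG1 probe changed by -0.33.

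PSMG4 had 6.49, 6.20 and 6.44 on the DHT arrays, against 7.09, 7.0 and 7.26 on the vehicle arrays, again without overlap. Its change of -0.74 ± 0.13 (1.67-fold lower, adjusted p = 0.00165, limma) was the largest of all members in this comparison. The second PSMG4 probe was detected on 0 arrays. The partner genes gave changes of 0.00 ± 0.07 for PSMG2 (95% interval -0.15 to 0.16) and -0.02 ± 0.11 for PSMG3 (-0.26 to 0.22).

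Among the activators, PSME4, a single-chain cap linked to histone degradation in the nucleus, had 10.38, 10.34 and 10.41 on the DHT arrays, against 9.72, 10.17 and 10.01 on the vehicle arrays. The groups did not overlap, and vehicle array 1 lay well below the other vehicle arrays. The change was 0.41 ± 0.11 (1.33-fold, adjusted p = 0.015, limma). PSME1, PSME2 and PSME3, the subunits of the smaller ring-shaped caps, did not pass, with changes of -0.14 to 0.11.

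**Figure D2:**
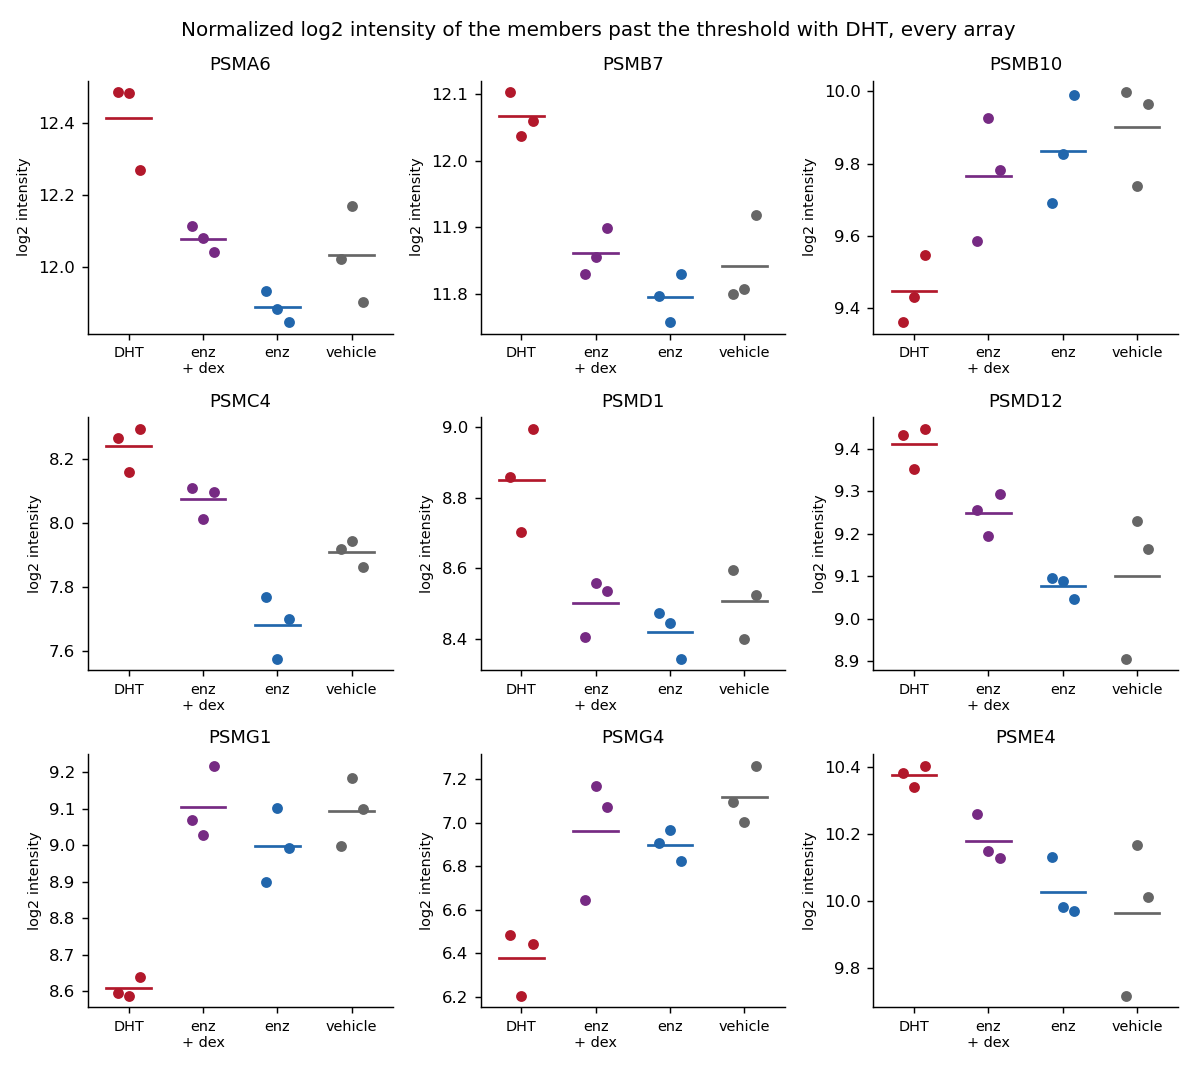
Log2 intensity (y axis, a separate range per gene) of the 9 members that passed the test with DHT, on every array of the 4 groups; points are arrays and bars are group means. PSMB10, PSMG1 and PSMG4 are low on the 3 DHT arrays and the other 6 genes are high there, without overlap with the vehicle arrays.

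PSMB7 lost its call without any 1 of the 3 DHT arrays or of vehicle arrays 1 and 2 (adjusted p = 0.0598 to 0.0998), PSMD1 without DHT array 1 or 3 or vehicle array 2 (0.0508 to 0.0767) and PSMD12 without DHT array 1 or 3 or vehicle array 1 (0.067 to 0.0754). With every array scaled to the median of all its probes, which shifted the median of all genes by 0.15 and their calls to 987 higher and 225 lower, only PSME4 passed among the members and the members' median was 0.15 above that of all genes. The ranks of probes detected on no array were used to divide the arrays into 2 sets of 6, by the sign of their first principal component (the main axis along which the arrays differ). The first set held DHT arrays 1 and 2, vehicle arrays 1 and 2 and array 1 of both other groups, at -213400 to -92900 on that axis. The second held the rest, at 37900 to 73960 except for vehicle array 3, which lay far out at 519100. Within each set the 9 changes kept their sign. In the first set, with 2 DHT and 2 vehicle arrays, only PSMG4 passed (-0.70, adjusted p = 0.0287, limma). The other set has 1 DHT array and 1 vehicle array, the outlying array 3. The changes in that set therefore have no replicate check, and that of PSMG4 was -0.82.

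Other genes of the pathway were read from 5 short lists. With DHT, 8.33% to 33.3% of the genes tested in a list passed, against 23.5% of all genes. The counts below are therefore no result about the pathway. Of 12 genes for proteasome-associated proteins, 1 rose: ADRM1, a ubiquitin receptor of the regulatory particle, had 10.61, 10.37 and 10.46 on the DHT arrays, against 10.17, 10.17 and 10.17 on the vehicle arrays (change 0.31 ± 0.08, adjusted p = 0.0123, limma). Of 8 genes for the transcriptional control of the proteasome, 1 rose and 1 fell. NGLY1, which removes sugars from NFE2L1 so that it can become active, rose by 0.33 ± 0.09 (adjusted p = 0.0176, limma). NFE2L3, a relative of NFE2L1, had 6.21, 6.00 and 6.12 on the DHT arrays, against 6.62, 6.78 and 6.72 on the vehicle arrays (change -0.60 ± 0.12, adjusted p = 0.00422, limma). NFE2L1 itself had a change of 0.00.

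Of 3 ubiquitin genes tested, UBA1, the enzyme that activates ubiquitin, rose (0.33 ± 0.08, adjusted p = 0.00869, limma). Of 11 ubiquitin shuttles and parts of the segregase, which pulls tagged proteins out of complexes, 1 rose and 2 fell. VCP, the segregase ATPase, rose by 0.29 ± 0.07 (adjusted p = 0.0154). The shuttle RAD23B had a change of -0.39 ± 0.07 (adjusted p = 0.00265) and the shuttle UBQLN4 of -0.29 ± 0.09 (adjusted p = 0.0367). Of 6 partners of the immunoproteasome, 1 fell: TAP2, a subunit of the peptide transporter, by a change of -0.46 ± 0.13 (adjusted p = 0.0243). The 2 detected probes of TAP2 went opposite ways (-0.46 and 0.24), and their mean changed by -0.11 (adjusted p = 0.546). The calls of ADRM1 (without DHT array 1, adjusted p = 0.0531), NGLY1 (DHT array 1 or vehicle array 3, 0.0588 to 0.0737), VCP (DHT array 1 or 3, 0.0554 to 0.0632), UBQLN4 (DHT array 2 or 3 or vehicle array 1 or 3, 0.056 to 0.139) and TAP2 (DHT array 1 or 3 or vehicle array 2 or 3, 0.0721 to 0.0892) were lost when that array was left out. With every array scaled to the median of all its probes none of the 8 calls in these lists was kept (adjusted p = 0.0644 to 0.915), and with scaling to the probes detected on all arrays UBQLN4 did not pass (0.0732).

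Enzalutamide against vehicle asked what blocking the receptor does in cells with the hormones of the medium. No member passed (limma, 0 of 45, against 2.19% of all genes, 1.04% higher and 1.15% lower), and 8 had an unadjusted p under 0.05. The members' median change was -0.09, against 0.01 for all genes, with 12 positive and 33 negative changes; all 7 constitutive beta subunits, all 5 ATPases and all 9 further subunits of the regulatory particle were negative, but 5, 3 and 5 of them were positive with every array scaled to the median of all its probes. That scaling shifted the median of all genes by 0.13 and made 33 of the 45 members positive, with 32 below the median of all genes. The arrays did not overlap for 13 members (2 above, 11 below), against 20.1% of all genes. This comparison and DHT against vehicle share the vehicle arrays.

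The lowest changes were those of PSMD8, a lid subunit, at -0.27 ± 0.11 (adjusted p = 0.254), and PSMC3, an ATPase, at -0.26 ± 0.10 (adjusted p = 0.249). PSME1, a subunit of the interferon-inducible cap, had 10.87, 10.80 and 10.66 on the enzalutamide arrays, against 10.56, 10.48 and 10.51 on the vehicle arrays. All enzalutamide arrays were above all vehicle arrays, and the change was 0.26 ± 0.08 (adjusted p = 0.141). Its partner PSME2 had a change of -0.08. In the 5 other lists no gene passed either. Their largest changes were -0.24 for ADRM1, 0.29 for DDI2, which cleaves NFE2L1, -0.07 for UBB, a ubiquitin gene, -0.32 for UFD1, a cofactor of VCP, and -0.36 for ERAP1, which trims peptides for antigen presentation. DDI2 was detected on 3 arrays and ERAP1 on 6, so the changes of these genes lie close to background.

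**Figure D3:**
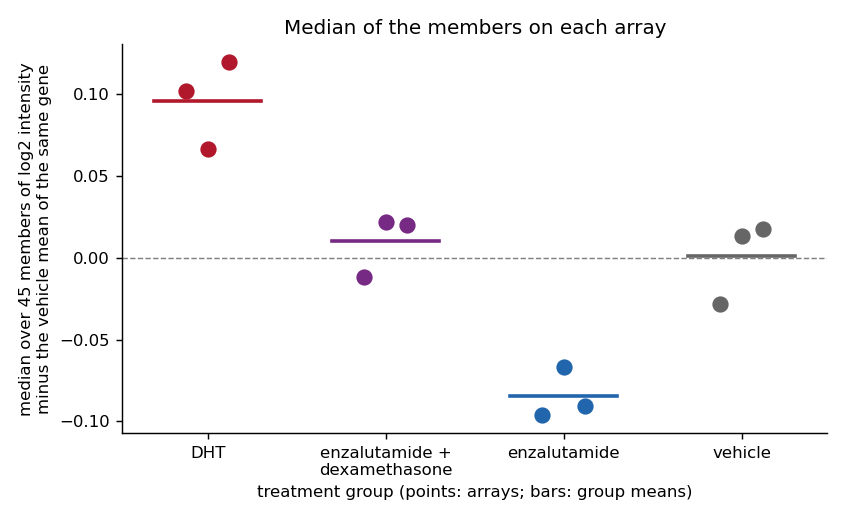
Median over the 45 members of the log2 intensity minus the same gene's vehicle mean (y axis), 1 point per array, with bars at group means. The DHT arrays lie at 0.07 to 0.12, the combination arrays at -0.01 to 0.02, the enzalutamide arrays at -0.10 to -0.07 and the vehicle arrays at -0.03 to 0.02.

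The median over all members on an array, relative to the vehicle means, was 0.10, 0.07 and 0.12 with DHT, -0.01, 0.02 and 0.02 with the combination, -0.10, -0.07 and -0.09 with enzalutamide, and -0.03, 0.01 and 0.02 with vehicle. The DHT arrays were above and the enzalutamide arrays below all others, with the combination arrays within or at the edge of the vehicle range. With arrays scaled to the median of all probes the members' median change with enzalutamide was 0.07, and -0.07 relative to all genes. These shifts were small beside the changes of the genes that passed the test.

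Dexamethasone, a ligand of the glucocorticoid receptor, was added to enzalutamide to ask what a second steroid receptor does when the androgen receptor is blocked. Among the members 1 of 45 rose, the ATPase PSMC4, and none fell (4.1% of all genes passed, 2.1% higher and 2% lower), and 6 had an unadjusted p under 0.05. PSMC4 had 8.11, 8.01 and 8.10 on the combination arrays, against 7.77, 7.57 and 7.70 on the enzalutamide arrays, without overlap. The change was 0.39 ± 0.08 (1.31-fold, adjusted p = 0.0139, limma). Its 3 probes again disagreed, with changes of 0.39, 0.35 and -0.16. The call was lost without combination array 1 or 3 or enzalutamide array 2 (adjusted p = 0.0548 to 0.068), over the mean of the 3 probes (change 0.19, adjusted p = 0.215) and with every array scaled to the median of all its probes (adjusted p = 0.632).

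The members' median change was 0.08, against 0.00 for all genes, with 34 positive and 11 negative (39 positive with every array scaled to the median of all its probes), and it was 0.05 without combination array 3. The arrays did not overlap for 13 members, against 23.5% of all genes. PSME1 had 10.44, 10.61 and 10.43 on the combination arrays, against 10.87, 10.80 and 10.66 on the enzalutamide arrays, a change of -0.28 ± 0.08 that did not pass (adjusted p = 0.0883). The immunoproteasome subunit PSMB8 had a change of -0.34 ± 0.15 (adjusted p = 0.271), and one of its 3 probes went the other way (0.16). No gene of the 5 other lists passed, and their largest changes were 0.23 for ECPAS, a proteasome-binding scaffold, 0.38 for NFE2L2, a relative of NFE2L1, 0.10 for UBB, 0.24 for NPLOC4, a cofactor of VCP, and -0.26 for TAPBP, which helps load peptides on class I molecules.

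The combination against vehicle gave 0 of 45 members past the threshold (limma, against 1.37% of all genes, 0.824% higher and 0.543% lower), 3 with an unadjusted p under 0.05, and a median of 0.01, equal to that of all genes to 2 decimals. Arrays did not overlap for 8 members, against 17.4% of all genes. The largest change was that of PSMC3IP, the recombination factor, near background (0.67 ± 0.23, adjusted p = 0.218). In the 5 other lists no gene passed, and the largest changes were 0.25 for UBLCP1, a phosphatase of the proteasome, 0.40 for NFE2L2, -0.04 for UBA1, -0.30 for UFD1 and -0.33 for ERAP1. The ERAP1 change lies close to background.

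The change that dexamethasone made on top of enzalutamide was then set against the change that DHT made over vehicle. These come from separate arrays, so their difference could be tested, and it passed for 2 of 45 members, both chaperones of core assembly and both positive, where 8.41% of all genes passed (4.38% positive, 4.03% negative). PSMG1 had 9.07, 9.03 and 9.22 on the combination arrays and 8.90, 9.10 and 8.99 on the enzalutamide arrays, which overlapped. Its dexamethasone change was 0.11 ± 0.08, and its difference from the DHT change of -0.49 was 0.59 ± 0.12 (adjusted p = 0.00987, limma).

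PSMG4 had 6.65, 7.17 and 7.07 on the combination arrays and 6.91, 6.97 and 6.82 on the enzalutamide arrays, also with overlap, as combination array 1 was low. Its dexamethasone change was 0.06 ± 0.13, and its difference from the DHT change of -0.74 was 0.80 ± 0.19 (adjusted p = 0.0213, limma). PSMG2 and PSMG3 gave differences of 0.01 and 0.06. PSMB10, which also fell with DHT, had a dexamethasone change of -0.07 and a difference of 0.38 that did not pass. For the 6 members that rose with DHT the difference did not pass, and for PSMC4 it was 0.06 ± 0.11 (95% interval -0.18 to 0.30). In the other risers the dexamethasone change was smaller than the DHT change. PSMA6 had 0.19 against 0.38, PSMB7 0.07 against 0.22, PSMD1 0.08 against 0.35, PSMD12 0.17 against 0.31 and PSME4 0.15 against 0.41. Among the other lists the difference passed for RAD23B (0.45 ± 0.11, adjusted p = 0.0221) and UBA1 (-0.40 ± 0.11, adjusted p = 0.0402).

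The PSMG4 call was lost without DHT array 2, combination array 2 or 3 or enzalutamide array 3 (adjusted p = 0.0505 to 0.0558), that of RAD23B without array 1 or 3 of DHT, of the combination or of enzalutamide (0.0502 to 0.0568), and that of UBA1 without any 1 array but enzalutamide array 3 (0.0502 to 0.0987). With every array scaled to the median of all its probes none of PSMG1 (adjusted p = 0.791), PSMG4 (0.368), RAD23B (0.88) and UBA1 (0.693) passed, and with scaling to the probes detected on all arrays UBA1 did not (0.078).

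**Figure D4:**
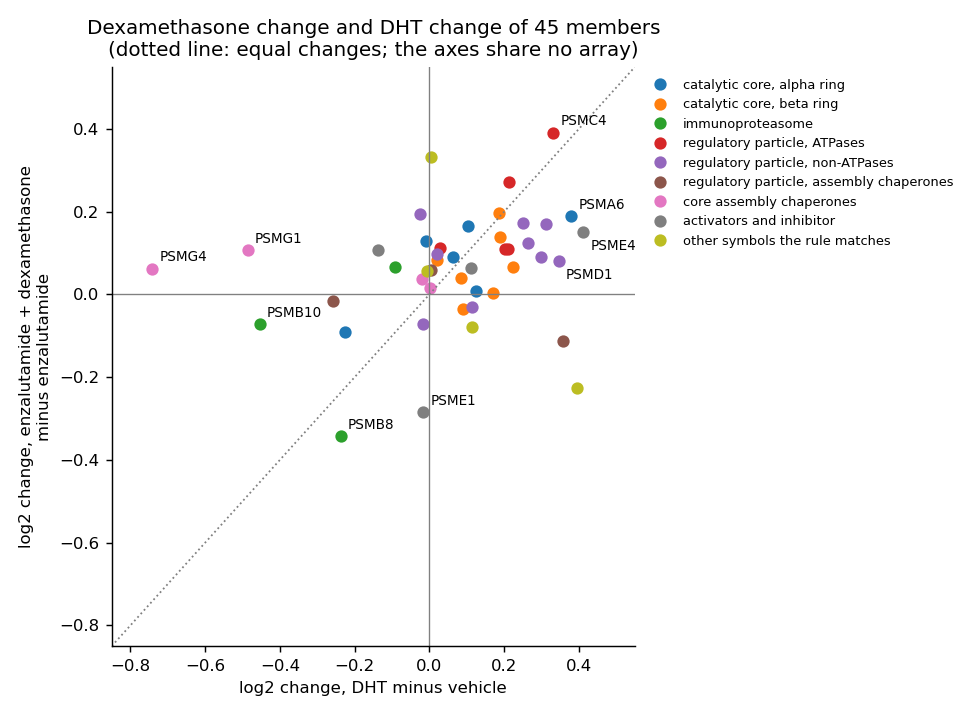
Log2 change of the 45 members with dexamethasone added to enzalutamide (y axis) and with DHT over vehicle (x axis), coloured by role, with a dotted line of equal changes; the axes share no array. PSMG1 and PSMG4 lie far left of the line, at -0.49 and -0.74 on the DHT axis and 0.11 and 0.06 on the dexamethasone axis. PSMC4 lies near the line at 0.33 and 0.39. The other genes that passed as higher with DHT lie below the line, and PSMB10 lies left of it.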

How the data were processed

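Total RNA of 12 VCaP cultures was hybridized as biotin-labelled cRNA to Illumina BeadChips, per the labels. The deposited intensities are GenomeStudio's mean per probe and array, not normalized (GenomeStudio per the submitters' processing notes, version not given in the sources used here). The deposited detection p-values compare each probe with negative controls. A second deposited table of intensities processed by the authors was used as an alternative, after adding 42.5 and taking log2.

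In R 4.3.3, the neqc function of limma 3.58.1 corrected the background (normexp from detection p-values, offset 16), quantile-normalized the arrays and took log2. Probes with detection p under 0.05 on at least 3 arrays were kept, 20265 of 47322 (42.8%), and 30112 probes had 1 gene symbol. The brightest kept probe stood for each of 11414 genes. A mean per group was fitted over all 12 arrays by lmFit, contrasts.fit and eBayes (degrees of freedom: 8 residual, 3.77 prior). Tests were two-sided, with Benjamini-Hochberg adjustment over all genes and a threshold of 0.05. Errors are standard errors of the fit. The fit was tested on simulated data with independent noise. These held no array sets, pairing or intensity differences between arrays, so the test does not bear on those.

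Members and gene lists were chosen with earlier results of these data known. Members past the threshold were named with values on every array, at most 3 up and 3 down per role with DHT and at most 10 in other comparisons, and in each other list at most 3 past the threshold or else the largest change. Members named besides these were chosen after their values were seen. Deviations of same-numbered DHT and vehicle arrays correlated at 0.148 to 0.194, all over 0.1, so the number was taken to pair them, and the block value is given where it changed a call. Over all group pairs the range was -0.0794 to 0.217. DHT and vehicle arrays 1 and 2 were in the first array set and array 3 of both groups in the second. The part of the sets in these correlations was not tested. The main fit did not include the replicate number. Promoter windows came from a RefSeq table of GRCh38.p14. Precision is limited by 3 arrays per group.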

Additional observations from a re-analysis of the deposited data

How the results depend on the processing

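No change that passed the test in a member or a gene of the other lists (22 in all) reversed its sign under any alternative, and of their 420 repeats 302 kept the call. Of the changes that did not pass, scaling to the median of all probes reversed the sign of 14 of 68 with DHT, 39 of 85 with enzalutamide, 12 of 84 and 35 of 85 for the combination over enzalutamide and vehicle, and 17 of 81 for the difference. Of the genes named, these were PSME1, PSME3 and PSMG3 (DHT), PSME2 and UBB (enzalutamide), UBA1 (combination over vehicle), and PSMG2, PSMG3 and PSMC4 (difference). With DHT, 9 members passed (6 higher, 3 lower). The count was 17 (14 higher) with no background correction, 14 (11 higher) with an offset of 50 and 1 (1 higher, 0 lower) with scaling to the median of all probes. The stricter filter gave 10 higher. Within array sets 1 and 2 it was 1 and 1, with 0 and 0 higher and 1 and 1 lower. With enzalutamide it was 1 (higher) with no background correction. For the combination against enzalutamide it was 2 (1 lower) with no background correction and 2 (1 lower) with an offset of 50. It was 0 (0 higher) with the mean of probes, with scaling to the median of all probes, and within set 1 and set 2. For the combination against vehicle it was 1 (1 higher) with scaling to the median of all probes. For the difference between the dexamethasone and DHT changes it was 0 (0 higher) with that scaling and within set 1 and set 2. The cause was not tested. The within-set fits rest on 6 arrays, and a group with 1 array there was assumed to vary like the others.

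Without 1 array, the DHT count was 6 to 10 (3 to 6 higher, 3 to 4 lower), the combination against enzalutamide 0 to 1 (0 to 1 higher), and the difference 1 to 2 (1 to 2 higher, 0 to 1 lower). The members' median was 0.06 to 0.13 with DHT, -0.09 to -0.06 with enzalutamide, 0.05 to 0.09 and -0.01 to 0.02 for the combination over enzalutamide and vehicle, and -0.05 to 0.01 for the difference. Counts over all genes fell on leaving out 1 array to as few as 125 of 250 (enzalutamide), 279 of 468 (combination against enzalutamide) and 48 of 156 (combination against vehicle).

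Over all genes 2683 passed with DHT, against 1212 with scaling to the median of all probes and 1117 and 531 within sets 1 and 2. With enzalutamide it was 250, against 475 (no background correction), 398 (offset 50), 405 (stricter filter), 51 (scaling) and 0 and 0 (sets). For the combination over enzalutamide it was 468, against 109 (scaling) and 0 and 34 (sets). For the combination over vehicle it was 156, against 287, 240, 239, 87 and 0 and 0 in the same order as for enzalutamide. For the difference it was 960, against 177 (scaling) and 1 and 18 (sets). That scaling moved the share of higher calls from 51.2% to 81.4% with DHT, 47.6% to 72.5% with enzalutamide, 51.3% to 67% for the combination over enzalutamide, 60.3% to 95.4% over vehicle and 52.1% to 36.7% for the difference. It shifted the median of all genes by 0.15 with DHT, 0.13 with enzalutamide and 0.20 for the combination over vehicle. Relative to all genes the members' median was then 0.15 with DHT, -0.07 with enzalutamide, 0.10 and 0.04 for the combination over enzalutamide and vehicle, and -0.02 for the difference.

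Scaling to the median of probes detected on all arrays (chosen after seeing the data) gave 11 members with DHT (8 of the 9, without PSMB7, and PSMB5, PSMD6 and PSMD14 in addition), and the other comparisons had the same members. The share of higher calls over all genes was then 45.5% with DHT, 38.5% with enzalutamide and 46.9% for the combination over vehicle. With the replicate number as a block, 10 members passed with DHT (PSMD14 in addition), with no other change of a member's call. An array correlated best with its own number in 29 of 36 sets of another group's arrays.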
